A study of Mus musculus with 16 samples.

Results

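Small nucleolar RNAs (snoRNAs) were followed in RNA of mouse dorsal root ganglia, the clusters of sensory neuron bodies beside the spinal cord. The 140 members were all genes whose symbol is Snora or Snord followed by a number, out of 53379 gene IDs in the deposited files. Of these, 41 were box H/ACA snoRNAs (Snora) and 99 were box C/D snoRNAs (Snord). All libraries came from naive Nav1.8Cre/Rosa26fstrap mice on a C57BL/6J background, aged 8 to 12 weeks, so every group carries both alleles. In these mice Cre is under the Scn10a promoter, which drives the sodium channel Nav1.8 in nociceptors (neurons that detect harmful stimuli), and a Cre-dependent fusion of EGFP with the ribosomal protein L10a is made in Nav1.8-expressing neurons. The groups were female IP and male IP, the RNA bound to ribosomes pulled down with anti-GFP antibodies, and female IN and male IN, the total RNA of whole ganglia. Each of 4 pools per sex held ganglia of 3 mice and gave 1 IP and 1 IN library, which made 16 libraries from 24 mice.

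snoRNAs are short RNAs that work mainly in the nucleolus. Box C/D snoRNAs guide ribose methylation and box H/ACA snoRNAs guide pseudouridylation, mostly of ribosomal RNA, and a few of either class take part in cutting the ribosomal RNA precursor. In mammals most are made from introns of other genes, called host genes here, and each class forms particles with its own core proteins, with fibrillarin as the methyltransferase of box C/D particles and dyskerin as the pseudouridine synthase of box H/ACA particles.

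The names were checked against the sequence boxes that define each class, in the GENCODE M21 transcripts (GRCm38), whose coordinates were those of the files for 140 of 140 members. The box C core TGATGA stood in the first 30 bases of 72.7% of the 99 box C/D members and box D, CTGA, in the last 15 bases of 92.9%. Both boxes were present in 69.7% of them and in 0 of 41 box H/ACA members. For box H/ACA, ANANNA (box H) stood in the central one of 3 equal stretches of 92.7% of the 41 members and ACA exactly 3 bases before the end of 82.9%, with both in 78.0% and in 0 of 99 box C/D members. Windows at the starts of protein-coding transcripts, 84 bases long for box C/D and 132 for box H/ACA (the median lengths of the classes), held both boxes in 0.032% of 21864 and in 0.586% of 21840. ANANNA alone stood in 44.4% of the box C/D members and in 31.2% of the 132-base windows, so it sets the class apart less than ACA. ACA stood in 0 of 99 box C/D members and in 1.4% of those windows. Only the strand of the RNA was searched, and a match is a description of letters.

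These 8 members are shown in full, because they are the abundant members of their class, a member that differed from the rest in its change, or the pair that is nearly the same in sequence. Each is read 5′ to 3′ from the GENCODE M21 transcripts. Capitals mark TGATGA and CTGA in box C/D members, and the ANANNA nearest the middle and the final ACA in box H/ACA members. Snord17 lies on chromosome 2 (144265979 to 144266216, minus strand), Snord15b on chromosome 7 (99479563 to 99479707, minus strand), Snord104 on chromosome 11 (106500993 to 106501062, plus strand) and Snord42b on chromosome 11 (78183056 to 78183124, minus strand). The box H/ACA members Snora23, Snora78, Snora73b and Snora73a lie on chromosomes 7 (110046364 to 110046547, plus strand), 17 (24719676 to 24719803, minus strand), 4 (132352322 to 132352526, minus strand) and 4 (132352775 to 132352979, minus strand).
Snord17: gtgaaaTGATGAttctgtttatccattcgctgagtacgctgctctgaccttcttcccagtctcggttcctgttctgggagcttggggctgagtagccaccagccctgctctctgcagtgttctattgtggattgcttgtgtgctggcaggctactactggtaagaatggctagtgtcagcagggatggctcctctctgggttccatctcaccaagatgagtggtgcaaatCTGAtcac
Snord15b: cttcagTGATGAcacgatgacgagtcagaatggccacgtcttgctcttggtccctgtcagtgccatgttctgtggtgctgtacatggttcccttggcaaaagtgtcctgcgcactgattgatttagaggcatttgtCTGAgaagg
Snord104: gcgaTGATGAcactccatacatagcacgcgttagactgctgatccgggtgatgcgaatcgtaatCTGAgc
Snord42b: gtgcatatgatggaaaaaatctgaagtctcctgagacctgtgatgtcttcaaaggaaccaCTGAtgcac
Snora23: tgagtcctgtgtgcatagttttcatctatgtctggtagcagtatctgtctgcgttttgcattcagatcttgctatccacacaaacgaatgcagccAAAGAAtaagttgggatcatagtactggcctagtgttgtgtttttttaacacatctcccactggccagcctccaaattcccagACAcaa
Snora78: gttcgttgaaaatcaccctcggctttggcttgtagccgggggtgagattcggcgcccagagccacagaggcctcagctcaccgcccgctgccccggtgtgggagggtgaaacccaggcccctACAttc
Snora73b: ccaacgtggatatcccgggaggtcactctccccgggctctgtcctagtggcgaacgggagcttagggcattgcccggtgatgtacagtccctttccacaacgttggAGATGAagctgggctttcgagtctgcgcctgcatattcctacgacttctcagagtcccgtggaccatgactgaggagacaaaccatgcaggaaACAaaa
Snora73a: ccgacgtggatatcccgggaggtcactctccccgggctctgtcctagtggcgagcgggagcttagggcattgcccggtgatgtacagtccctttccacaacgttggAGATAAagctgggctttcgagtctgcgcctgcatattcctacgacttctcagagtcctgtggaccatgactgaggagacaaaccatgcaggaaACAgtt
Snord42b holds no TGATGA in its first 30 bases and Snora78 no ANANNA in its central stretch. Snora73b and Snora73a, both of 205 bases, differ at 7 positions, counted from the 5′ end with the base of Snora73b first: A3G, A54G, G111A, C164T, A203G, A204T and A205T. Their identity was 96.6%, so that reads can be split between them in counting, and values of either are uncertain.

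The deposited values are TPM (transcript abundances relative to a fixed total), corrected for gene length, with the same total in every library. No read counts can be had from them, and the depth of the libraries is unknown. Levels below are scaled TPM, in which the median gene is set to the same level in all libraries. The scaling was a median of ratios over those of the 16099 tested genes that were above 0 in every library. It was used because RNAs other than those of nuclear protein-coding genes filled most of the IN total. The share of protein-coding genes, with mitochondrially encoded genes counted among the other RNAs, was 45.0% to 79.9% in IP libraries. In IN libraries it was 9.60% to 13.4%. The scaling decides the sign of many snoRNA values, and the deposited TPM are therefore given beside them. The pulldown was checked by 9 of 9 nociceptor markers, which were higher in IP (median log2 change 1.53), where 40.5% of all genes were. Markers of other cell types were lower in IP with the scaled TPM, where 38.9% of all genes were. These were all tested markers of large-diameter neurons (5), satellite glia (5), Schwann cells (5), macrophages (5), fibroblasts (5), endothelium (4) and skeletal muscle (4). With the deposited TPM, Nefh, Ntrk3, Glul, Pmp22 and Aif1 were called higher instead (log2 0.44 to 1.61). Mbp, Pdgfra, Ckm and Myh4 were not called on that scale, and the others stayed lower (5.81% of all genes). The 9 nociceptor markers were again higher (90.8% of all genes). No marker was at 0 in all IP libraries. Schwann cell markers, for example, summed to 390.4 to 1015 scaled TPM in IP libraries and 2403 to 3537 in IN libraries. The IP library of female pool 2 stood apart. Its protein-coding share was the smallest among IP libraries (45.0%). It had the highest sums of satellite glial markers (238 scaled TPM, against 765 to 1089 in IN), of muscle markers (135) and of mitochondrial RNAs (1236). Its sums of Schwann cell, macrophage, fibroblast and endothelial markers were also the highest of the IP libraries. Its sum of nociceptor markers was the lowest of them (3042, IP median 4029), against 1231 to 1430 in IN. Results are given with and without that pool where it moves them.

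snoRNAs were a small and unevenly detected part of both fractions. Together they held 0.0100% to 0.0335% of the TPM in IP libraries and 0.0089% to 0.0148% in IN libraries. Between 50 and 112 members were above 0 in an IP library, against 113 to 120 in an IN library. The highest IP number, 112, was that of female pool 2, and in the other IP libraries it was 50 to 85, below every IN library. Over all genes the ranges came closer, with 24303 to 28093 genes above 0 in IP libraries and 27904 to 29229 in IN libraries. A listed 0 can be a failed estimate. Of the 140 members, 34 were above 0 in all 8 IP libraries and 91 in all 8 IN libraries. Fewer IP than IN libraries held a value above 0 for 96 members, and more did so for 1, Snord93 (2 IP libraries and 1 IN library, named after its values were seen). Of the 41 box H/ACA members, 20 were above 0 in all 8 IP libraries and 36 in all 8 IN libraries. For the 99 box C/D members these numbers were 14 and 55, and 8 box C/D members were above 0 in no library.

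The members that could be tested were mostly the longer ones. Box H/ACA members were 121 to 205 bases long (median 132) and box C/D members 64 to 238 (median 84). Of the 53 members of at least 100 bases, 23 reached a mean of 1 TPM over the 8 IP or the 8 IN libraries, the minimum for a test, and of the 87 shorter ones 4 did. The longest member, Snord17 at 238 bases, also had the highest mean deposited TPM over the 16 libraries (31.6). Across the 140 members, which share libraries and depth, Pearson's r of length with the log2 of the mean TPM plus 1 was 0.65, and Spearman's rho of length with the mean TPM was 0.34. Within box C/D, r was 0.67 and rho was -0.10, and within box H/ACA r was 0.63 and rho was 0.35.

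**Figure D1:**
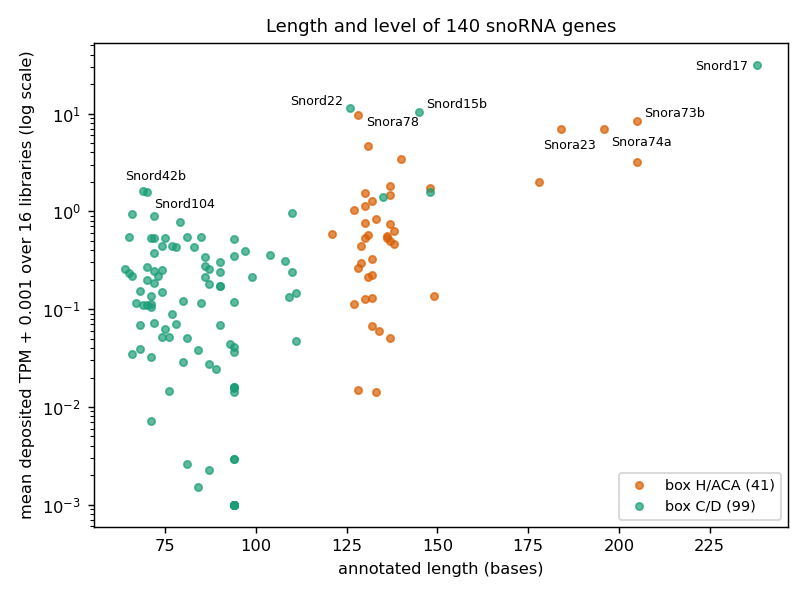
Annotated length in bases (x axis) and mean deposited TPM plus 0.001 over 16 libraries (y axis, log scale) of 140 snoRNA genes, box H/ACA in orange and box C/D in green. Snord17 is the longest and most abundant member, and the bottom points, at 0.001, are listed at 0 in every library.

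As a group, snoRNAs were lower in IP than in IN once libraries were scaled. The summed box H/ACA level was 17.9 to 105 scaled TPM in IP libraries and 80.4 to 151 in IN libraries. It was lower in IP in 8 of 8 pools, with a mean log2 ratio of -1.47 ± 0.59 (SD, n = 8 pools) that became 0.82 ± 0.43, higher in 8 of 8 pools, with the deposited TPM. The IP library of female pool 2, at 105, was the only IP library above any IN library, and the other IP libraries ended at 52.4. The summed box C/D level was 20.3 to 97.9 scaled TPM in IP libraries and 109 to 200 in IN libraries, with no overlap. Its mean log2 ratio was -2.04 ± 0.68, lower in IP in 8 of 8 pools, against 0.25 ± 0.48 with the deposited TPM, where 5 pools were higher and 3 lower. Female pool 2 had the ratios nearest 0, with -0.52 for box H/ACA and -0.47 for box C/D, and without it the means were -1.61 and -2.26. In bulk samples such as these, fewer cells of a type and less RNA per cell cannot be told apart.

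The balance of the classes within a library needs no scaling. Box H/ACA members made up 44.7% to 51.8% of the summed snoRNA TPM in IP libraries and 29.9% to 52.6% in IN libraries. The share was higher in IP in 7 of 8 pools, by a mean of 9.40 ± 7.67 percentage points (SD, n = 8 pools), and in female pool 2 it was 51.8% in IP and 52.6% in IN. The IN shares spread more than the IP shares. In the 4 IN libraries with the lowest box H/ACA shares (29.9% to 36.3%) Snord22 was at 34.1 to 60.4 scaled TPM, and in the other 4 it was at 4.89 to 7.62. Snord17 alone held 31.4% to 47.1% of the box C/D sum in IP libraries and 37.9% to 47.7% in IN libraries. With Snord17 and Snord22 left out, the share was again higher in IP in 7 of 8 pools. Whether the classes differ was not tested, because members of a class share libraries.

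**Figure D2:**
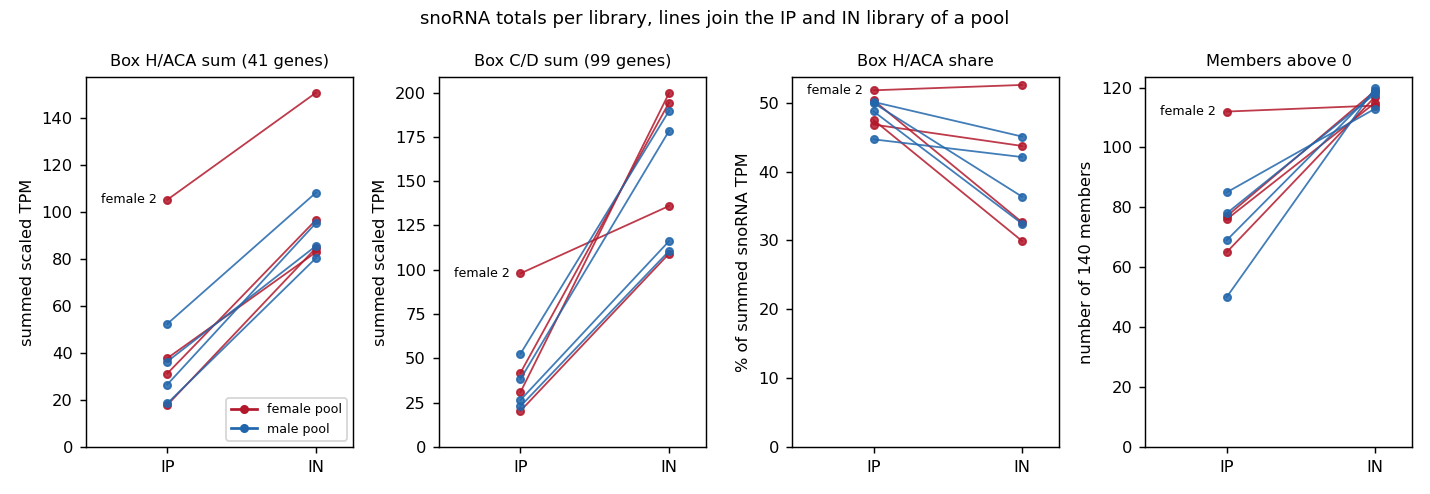
Summed scaled TPM of the 41 box H/ACA and 99 box C/D genes, box H/ACA share of the summed snoRNA TPM (%) and number of members above 0, per library, with IP left of IN and a line joining the libraries of a pool (red female, blue male). Both sums of scaled TPM were lower in IP in 8 of 8 pools (with the deposited TPM in 0 and 3 of 8), and the IP library of female pool 2 is the highest IP point in each panel.

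The question set by IP against IN is which RNAs ribosomes of Nav1.8-expressing neurons carried, and 27 members could be tested (17 box H/ACA and 10 box C/D). Of these, 18 passed the filter of a mean of 1 TPM in both fractions, 9 passed through IP only and 113 of the 140 did not pass. In limma with the pool as a block and Benjamini-Hochberg adjustment over all genes, 21 members fell and 1 rose in IP, and 5 were not called. With the deposited TPM, 1 fell (Snora74a) and 16 rose. The filter itself used the deposited TPM, and 0 members passed through IN only. Members let in by their IP level alone favour rises and higher class medians on that scale. The rises among the 18 are not given. The background was large in both directions. Of 16099 genes tested, 79.4% were called, 38.9% lower and 40.5% higher, with the scaled TPM, and 5.81% lower and 90.8% higher with the deposited TPM. Of the 17 box H/ACA members 13 fell (median log2 change -0.95), against 1 that fell and 10 that rose with the deposited TPM. Of the 10 box C/D members 8 fell (median -0.85), against 0 that fell and 6 that rose with the deposited TPM. Among members that passed in both fractions, 10 of 13 box H/ACA (median -0.97) and 5 of 5 box C/D members (median -1.22) fell. The order of the 2 class medians thus turned with the filter. The 9 that passed through IP only had a median of -0.61. The median over all genes tested was 0.02. The deposited TPM moved the median of all genes to 1.84 and those of the classes to 0.43 and 0.42, a difference from all genes of -1.40 for box H/ACA and -1.42 for box C/D. Quantile normalization left 17 lower and 2 higher, with differences from all genes of -0.73 and -0.66. The share of all genes called after quantile normalization is not given, so these counts cannot be set against a background. Lower in 8 of 8 pools were 14 members (33.0% of all genes), and in 5 members every IP library lay below every IN library (26.0% of all genes), while in 0 members every IP library lay above every IN library (22.4% of all genes). The 5 were Snord17, Snora23, Snora68, Snora31 and Snora57. Without female pool 2, 21 of 26 tested members fell and 0 rose, and the share of all genes called without that pool is likewise not given. With no filter on low values, 25 of 41 box H/ACA and 50 of 91 box C/D members with any value above 0 were called lower and 0 higher (limma, 39.3% of 35913 genes lower and 19.2% higher).

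**Figure D3:**
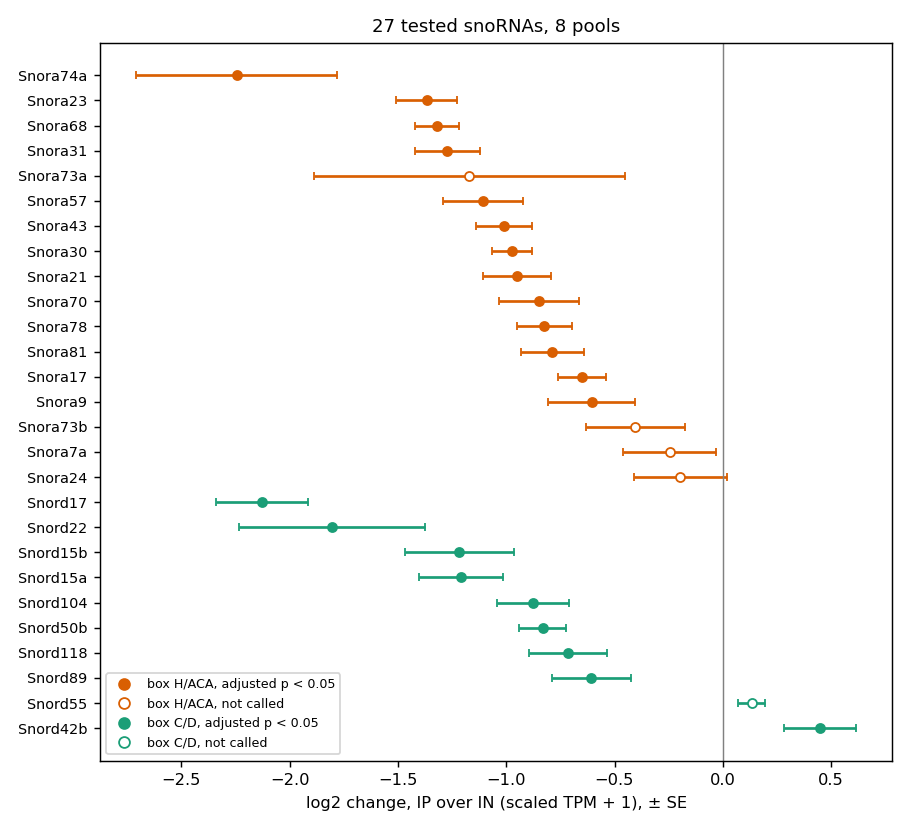
Log2 change IP over IN (scaled TPM + 1) of the 27 tested snoRNAs, with bars for the standard error of the fit over 8 pools, box H/ACA in orange above box C/D in green. Filled points passed an adjusted p of 0.05 (21 lower and 1 higher, against 1 lower and 16 higher with the deposited TPM), and open points did not.

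Among box C/D members, Snord17 held the highest level. It lies in an intron of Snx5, a gene of a sorting nexin of endosomes. Its scaled TPM were 6.36 to 40.6 in IP libraries (median 12.8) and 47.3 to 85.5 in IN libraries (median 64.2). Every IP library lay below every IN library, and the IP library of female pool 2 was the highest of its fraction. The log2 change was -2.13 ± 0.21 (SE, limma adjusted p = 5.49e-06). In deposited TPM, Snord17 averaged 33.4 in IP and 29.7 in IN, a log2 value of 0.073.

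Snord22 (U22), which in vertebrates is needed to make the small-subunit ribosomal RNA, overlaps an exon of the noncoding gene Snhg1 on its strand, so reads of both cannot be told apart by position. It was at 1.3 to 9.59 scaled TPM in IP libraries (median 4.84) and 4.89 to 60.4 in IN libraries (median 20.9). The groups overlapped, and IN libraries fell into 4 high and 4 low ones. The low ones, at 4.89 to 7.62, lay within the range of the IP libraries. Each pool was lower in IP, but in male pool 4 the values were nearly equal (4.83 in IP and 4.89 in IN). Its log2 change was -1.80 ± 0.43 (limma adjusted p = 0.00276).

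Snord15b and Snord15a are both held by Rps3, a ribosomal protein gene, and their human counterparts guide methylation of the large-subunit ribosomal RNA. Snord15b overlaps an annotated exon, so host reads can be counted toward it, and Snord15a lies in an intron. Snord15b was at 1.48 to 24.3 scaled TPM in IP libraries (median 4.65) and 9.28 to 17.6 in IN libraries (median 14.2). The IP library of female pool 2, at 24.3, lay above all IN libraries, and the other 7 pools were lower in IP. The log2 change was -1.22 ± 0.25 (limma adjusted p = 0.0012). Snord15a was at 0 to 2.19 in IP libraries (median 0.800) and 1.93 to 4.83 in IN libraries (median 2.87), lower in 8 of 8 pools although the groups overlapped, with a log2 change of -1.21 ± 0.19 (limma adjusted p = 0.000187).

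A U8 gene and members with little-known hosts were lower as well. Snord118 (U8), which is needed for maturation of the large-subunit ribosomal RNAs and is made from its own promoter, was at 0.359 to 1.62 scaled TPM in IP libraries (median 0.720) and 0.927 to 3.44 in IN libraries (median 2.08). The groups overlapped and 7 of 8 pools were lower in IP, with a log2 change of -0.71 ± 0.18 (limma adjusted p = 0.00396). Snord104, which lies in no annotated gene on its strand, was at 0.467 to 2.25 in IP libraries (median 0.808) and 1.09 to 3.85 in IN libraries (median 2.67). It was lower in 8 of 8 pools, with overlapping groups and a log2 change of -0.88 ± 0.17 (limma adjusted p = 0.00069). Snord89 had a log2 change of -0.61 ± 0.18 (limma adjusted p = 0.0107) and was listed at 0 in 1 IP library.

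Snord42b was the only member called higher with the scaled TPM. It passed the filter on low values through IP only, and of the 18 members that passed in both fractions 0 were called higher. It overlaps an exon of Rpl23a, a ribosomal protein gene, and its human counterpart guides methylation of the small-subunit ribosomal RNA. Scaled TPM were 0.398 to 2.08 in IP libraries (median 1.41) and 0.184 to 1.48 in IN libraries (median 0.552). The groups overlapped, with 6 pools higher and 2 lower in IP. The log2 change was 0.45 ± 0.17 (limma adjusted p = 0.0291). Leaving out female pool 2 or 4, or male pool 2, 3 or 4, ended the call (adjusted p up to 0.0705). Snord55 was the member of the class not called (named after its values were seen). It was at 0.234 to 1.29 in IP libraries (median 0.516) and 0.166 to 1.12 in IN libraries (median 0.361), with a log2 value of 0.13 ± 0.06 (limma adjusted p = 0.0777) and overlapping groups.

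In 4 box H/ACA members every IP library lay below every IN library, and the 2 with the smallest adjusted p were Snora68 and Snora23, whose human counterparts guide pseudouridylation of the large-subunit ribosomal RNA. Snora68, which overlaps an annotated exon of another gene, was at 1.22 to 5.44 scaled TPM in IP libraries (median 2.68) and 5.96 to 10.3 in IN libraries (median 7.70). The highest IP value was just under the lowest IN value, and female pool 2 was the highest in both fractions. The log2 change was -1.32 ± 0.10 (limma adjusted p = 7.23e-07). Snora23, in an intron of the nuclear import receptor gene Ipo7, was at 1.26 to 5.91 in IP libraries (median 4.42) and 9.64 to 13.4 in IN libraries (median 11.4), again with no overlap. Its log2 change was -1.37 ± 0.14 (limma adjusted p = 6.59e-06). Snora31, in an intron of Tpt1, was listed at 0 in 1 IP library and reached at most 1.22, against at least 1.41 in IN, with a log2 change of -1.27 ± 0.15 (limma adjusted p = 2e-05).

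Snora78, in an intron of the noncoding gene Snhg9, had the highest mean deposited TPM of the class (9.56). It was at 2.19 to 13.3 scaled TPM in IP libraries (median 5.59) and 7.84 to 17.2 in IN libraries (median 10.9). The groups overlapped, and each of the 8 pools was lower in IP. The log2 change was -0.82 ± 0.13 (limma adjusted p = 0.000138), against 1.19 with the deposited TPM. Snora81, over an exon of the translation initiation factor gene Eif4a2, was lower in 7 of 8 pools, with a log2 change of -0.79 ± 0.14 (limma adjusted p = 0.000514).

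Snora74a and the U17 pair varied widely between libraries. Snora74a (U19), over an exon of the noncoding gene AC121821.1, had the most negative log2 change, -2.25 ± 0.46 (limma adjusted p = 0.00115). It was listed at 0 in 2 IP libraries, had an IP median of 0.493 scaled TPM and reached 20.2 in female pool 2, against 1.18 to 22.9 in IN (median 14.4), and was lower in IP in 8 of 8 pools. Snora73b and Snora73a (both U17), which are needed for cleavage of the precursor of the small-subunit ribosomal RNA, lie within Snhg3, over an exon of the opposite-strand gene Gm17300. Snora73b was at 1.28 to 28.0 in IP libraries (median 4.06) and 3.70 to 18.9 in IN libraries (median 6.08). Female pool 2 was the highest in both fractions, and 5 pools were lower and 3 higher in IP. The log2 value was -0.40 ± 0.23 (limma adjusted p = 0.129), and without female pool 2 it was -0.54 and passed. Snora73a, which also overlaps an exon of Snhg3, was at 0.0128 to 6.73 in IP libraries (median 0.131) and 0.298 to 31.3 in IN libraries (median 1.38). Its log2 value was -1.17 ± 0.72 (limma adjusted p = 0.157), and without male pool 3 it was -1.71 and passed.

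Snora7a, over an exon of Rpl32, and Snora24, over an exon of Snhg8, were not called either (Snora24 named after its values were seen). Snora7a was at 0.215 to 3.89 scaled TPM in IP libraries (median 2.76) and 1.78 to 4.88 in IN libraries (median 2.82). The groups overlapped almost fully, and the log2 value was -0.25 ± 0.22 (limma adjusted p = 0.311), or 0.16 after quantile normalization. Snora24 had 4 pools lower and 4 higher in IP and a log2 value of -0.20 ± 0.21 (limma adjusted p = 0.418).

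**Figure D4:**
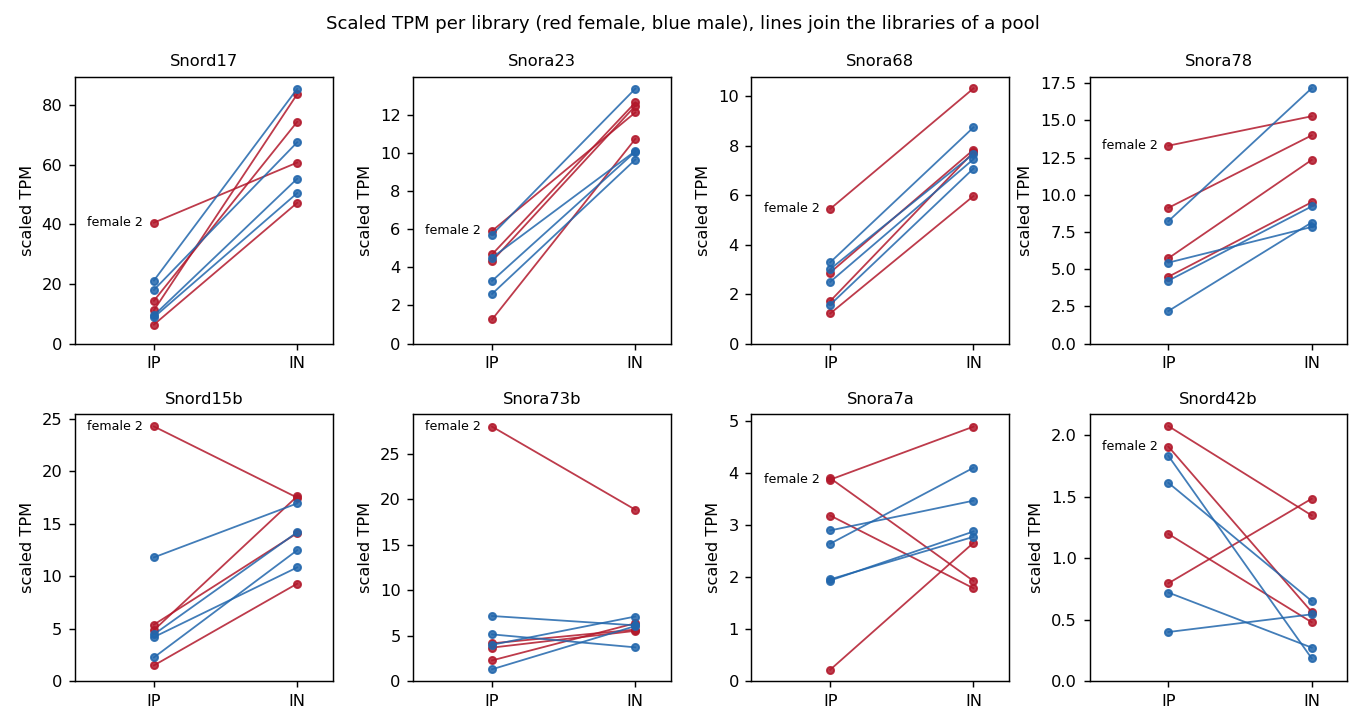
Scaled TPM per library of 8 members, IP left of IN, with a line joining the libraries of a pool (red female, blue male) and the IP library of female pool 2 marked. Snord17, Snora23 and Snora68 show no overlap of IP and IN, while female pool 2 is far above the other IP libraries for Snord15b and Snora73b.

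Below the filter lay most of the snoRNAs with special origins or roles. All 17 members of the Snord116 cluster, which lies in the imprinted region that is lost in Prader-Willi syndrome in humans, were untested. They are nearly the same in sequence, 9 were above 0 in any library, the highest value was 0.500 TPM and 12 were above 0 in no IP library. Snord64 and Snord107, whose human counterparts lie in the same region, were above 0 in all 16 libraries, with mean deposited TPM of 0.161 in IP and 0.0693 in IN for Snord64, and 0.316 in IP and 0.0796 in IN for Snord107. The order turned with scaling, which gave medians of 0.0719 in IP and 0.129 in IN for Snord64, and 0.155 in IP and 0.174 in IN for Snord107. Snord13 (U13), which guides acetylation of the small-subunit ribosomal RNA, averaged 0.405 deposited TPM in IP and 0.316 in IN, against scaled medians of 0.228 in IP and 0.614 in IN. The U14 genes Snord14c, Snord14d and Snord14e, which act in processing of the small-subunit ribosomal RNA, averaged 0.0952, 0.331 and 0.281 deposited TPM in IP and 0.325, 0.222 and 0.0625 in IN. Their scaled medians were 0.0389, 0.116 and 0.084 in IP and 0.237, 0.243 and 0.153 in IN, so that all 3 were lower in IP on that scale. Snord14c and Snord14d are nearly the same in sequence, so their split is uncertain. Of the 4 members held by Gas5, a noncoding gene named for growth arrest, Snord78 was the highest, at a mean of 0.890 deposited TPM in IP and 0.970 in IN (scaled medians 0.262 in IP and 0.325 in IN).

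Members that fell were found in each kind of genomic position. Of all 140, 70 lay within an intron of a gene on their strand, 64 overlapped an annotated exon of such a gene and 6 lay in no gene. Ribosomal protein genes held 33 members, other protein-coding genes 50 and noncoding genes 51. Of the tested members, 8 of 10 in introns, 8 of 12 over exons and 5 of 5 outside genes fell in IP (38.9% of all genes). For the members over exons, reads of the host's own RNA can be counted toward the snoRNA. With those members left out, the class medians were -0.97 for box H/ACA and -0.80 for box C/D.

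With the scaled TPM, the host gene had a log2 change nearer 0 than the snoRNA it holds in 16 of 18 pairs. The exceptions were Snora7a with Rpl32 and Snora24 with Snhg8. In these 18 pairs of a tested member with a tested host (16 hosts), the median log2 change was -0.90 for the snoRNAs and -0.039 for the hosts. The snoRNA's change lay below that of its host in 16 pairs, and in 6 of these in each of the 8 pools. The other 2 were Snord42b with Rpl23a and Snora24 with Snhg8. Of the 16 hosts 3 rose, 7 fell and 6 were not called, where 40.5% of all genes rose and 38.9% fell. With the deposited TPM all 16 were called higher (90.8% of all genes), at a median log2 change of 2.04. That was farther from 0 than the medians of all tested members on that scale (0.43 for box H/ACA and 0.42 for box C/D). After quantile normalization 1 host was called higher and 5 lower, with the share of all genes not given. In the 6 pairs with a ribosomal protein gene, the medians were -0.90 for the snoRNAs and 0.29 for the hosts. The log2 change of the snoRNA minus that of its host was -1.57 ± 0.66 for Snord15a and Rps3 (SD, n = 8 pools, below 0 in 8 of 8) and -1.31 ± 0.68 for Snord17 and Snx5 (7 of 8). Without the 1 added before logs, such a difference within a library would not depend on the scaling. Snord15a had an IP median of 0.800 scaled TPM, and at such levels the added 1 makes the size of the difference depend on the scaling. Such a difference does not show that a host did not change. Several of the paired snoRNAs, Snord15b among them, overlap an annotated exon, so host reads can be counted toward them.

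**Figure D5:**
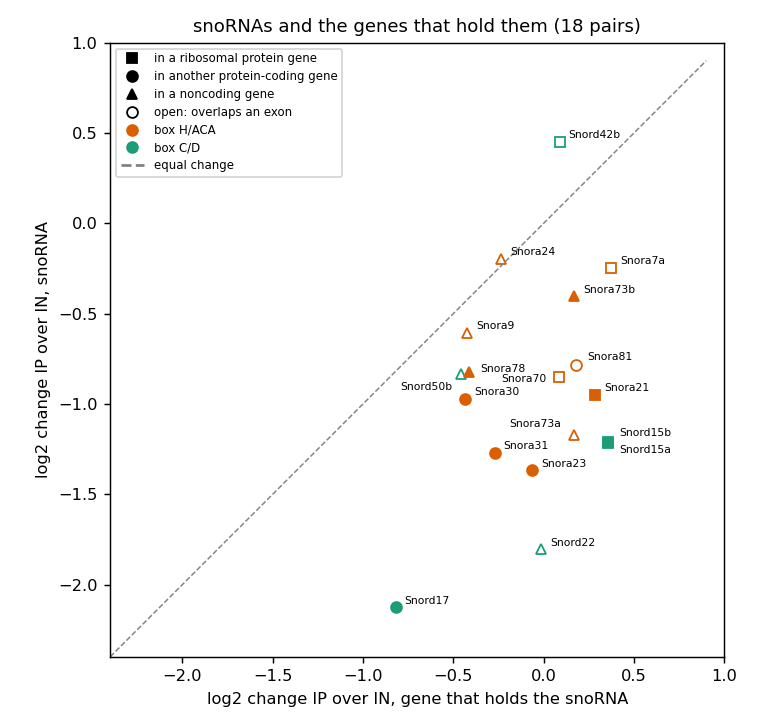
Log2 change IP over IN of the gene that holds a snoRNA (x axis) and of the snoRNA (y axis) for 18 pairs, with the dashed line at equal change. In 16 pairs the point lies below the line, and Snord42b and Snora24 lie above it.

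Several transcripts of the proteins that bind snoRNAs were higher in IP. Of 4 box C/D core protein genes, Fbl, Nop56 and Snu13 rose in IP (log2 0.23 ± 0.04, 0.42 ± 0.09 and 0.63 ± 0.04) and Nop58 was not called. Of 4 box H/ACA core protein genes, Nop10 and Nhp2 rose (0.70 ± 0.05 and 0.82 ± 0.05), while Dkc1, which encodes dyskerin, and Gar1 had log2 values of 0.12 and 0.08 and were not called. After quantile normalization all 4 were called higher (Dkc1 at 0.29 and Gar1 at 0.41), with the share of all genes not given. Of 10 assembly factor genes, 7 rose, among them the chaperone helicase genes Ruvbl1 (0.35 ± 0.05) and Ruvbl2 (0.34 ± 0.05). With the scaled TPM 2 fell, Naf1 (-0.27 ± 0.04), which acts early in assembly of box H/ACA particles, and Znhit6 (-0.27 ± 0.10). Both were called higher with the deposited TPM. After quantile normalization Naf1 was called higher (0.17) and Znhit6 was not called. All calls are from limma, and with the scaled TPM 40.5% of all genes rose. With the deposited TPM, all 18 of these genes were called higher, where 90.8% of all genes were.

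Other nuclear RNAs were lower in IP under more than one scaling. All 6 tested nuclear and nucleolar RNA markers fell, with a median log2 change of -3.68, and all 6 fell with the deposited TPM (median -1.40), where 16 snoRNAs rose. After quantile normalization 5 of the 6 fell, and Rn7sk had a log2 value of -0.30 (limma adjusted p = 0.611). They included Rmrp, the RNA of a nucleolar ribonuclease (-3.45 ± 0.22), Rn7sk, which binds a transcription elongation factor (-4.01 ± 0.43), and Malat1, a noncoding RNA of nuclear speckles (-3.92 ± 0.39). Of 7 tested small Cajal body RNAs, which guide the same modifications on spliceosomal RNAs, 2 fell (Scarna3a, -1.92 ± 0.22, and Scarna6, -0.50 ± 0.14), 0 rose and the median was -0.27, where 38.9% of all genes fell. With the deposited TPM 1 fell and 5 rose, Scarna6 among them, where 5.81% of all genes fell and 90.8% rose. The sum of Malat1, Neat1, Meg3 and Rn7sk was 578 to 9867 scaled TPM in IP libraries and 39251 to 51750 in IN libraries. Its IP maximum was in female pool 2, where both snoRNA sums were also the highest of the IP libraries. Its IP minimum was in male pool 4, where the box H/ACA and box C/D sums were 18.5 and 22.9 scaled TPM. These were close to the lowest IP sums, 17.9 and 20.3 in female pool 3. The part of carried-over nuclear RNA and of other cell types in the IP values of snoRNAs was not tested.

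No tested snoRNA was called between the sexes. In limma, 0 of 27 members passed in female against male IP (1 at an unadjusted p under 0.05), 0 in female against male IN (2) and 0 in the interaction of sex and fraction (2). Of all 16099 genes, 0.0497%, 0.0808% and 0.0186% were called in these comparisons, and 2.25%, 4.82% and 2.78% had an unadjusted p under 0.05. The smallest interaction p of a member was that of Snora17, whose IP mean was 1.12 ± 0.58 scaled TPM in female and 0.516 ± 0.20 in male pools and whose IN mean was 1.64 ± 0.48 in female and 1.94 ± 0.47 in male pools (SD, n = 4 pools each). The log2 difference of its changes, female minus male, was 0.60 ± 0.12 (SE, limma adjusted p = 1.0). Snord104 averaged 1.3 ± 0.65 in female IP and 0.592 ± 0.13 in male IP, a log2 difference of 0.49 ± 0.17 (limma adjusted p = 1.0). In IN, Snord50b, which is nearly the same in sequence as Snord50a and therefore uncertain, averaged 1.32 ± 0.31 in female and 1.97 ± 0.37 in male pools (limma adjusted p = 0.962), and Snord42b averaged 0.968 ± 0.52 in female and 0.412 ± 0.22 in male pools (limma adjusted p = 0.962).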

How the data were processed

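Values were the TPM per gene that the authors deposited for each library, made with FastQC, STAR 2.2.1 and StringTie 1.3.5 on GRCm38.p5 per the submitters' processing notes. The header, in the last line of each file, ends in Coverage, and the column sums to 1000000 in each library, so the unit rests on that sum. Neither the gene annotation release nor whether counting used strand is given in the sources used here. Without strand, a snoRNA and an exon of an opposite-strand gene cannot be told apart, which touches 5 members (2 tested). Libraries were made with ribosomal RNA depletion per the labels' protocols.

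Values of entries with one gene ID were added up, and 92 ERCC entries (0.0612% to 2.07% of TPM) were left out. Host genes, exons and sequences came from GENCODE M21, and members of at least 90% identity (edlib 1.3.9.post1) were named as near copies. Some host genes are not reported here, and their pairs are not counted. TPM were scaled by the median of ratios (factors 1.65 to 2.69 for IP and 0.375 to 0.532 for IN), 1 was added and log2 taken, so changes of low genes are understated. Genes with a mean of at least 1 TPM over the 8 IP or the 8 IN libraries were tested, two-sided, with limma 3.58.1 in R 4.3.3 (intensity trend, Benjamini-Hochberg, 0.05), in 4 comparisons: IP against IN and the interaction of sex and fraction with the pool as a block, and female against male in IP and in IN without one. Per the series design text, IP and IN came from the same pool, which pairs them. Correlations of their deviations from the group means were 0.014, 0.116, 0.198 and 0.414 in female and 0.007, 0.276, 0.208 and 0.323 in male pools. The fit was tested on simulated data. Python 3.11.15 with pandas 2.3.3 and matplotlib 3.10.9 was used for the rest.

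Members and gene lists were chosen with earlier results of these data known, so list counts are descriptions. Named members were the 8 most abundant of each class, the 6 largest changes in each direction with the same sign in 8 pools, the smallest p in the sex comparisons, sets by known role or origin, and hosts. Alternatives were other scalings, pseudocounts and filters, no trend, no or another block, and leaving out each pool.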

Additional observations from a re-analysis of the deposited data

Results flagged for a closer look

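In 124 groups of 4 libraries (27 tested members and 4 totals), 9 held a library far from the other 3 by Dixon's test. Chance flags about 1 in 20 groups.

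Among them, 3 were the IP library of female pool 2. Snord15b was at 24.3 scaled TPM there, against 1.48 to 5.37 in the other female IP libraries. Snora73b was at 28.0, against 2.26 to 4.14, and Snord118 was at 1.62, against 0.359 to 0.525. The IN library of the same pool stood apart for Snora73b, at 18.9 against 5.52 to 6.35 in the other female IN libraries. That IP library also had the highest glial, muscle, mitochondrial and nuclear RNA of the IP libraries, and the part of these in the values was not tested.

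Male pool 2 held 3 of them. Snora74a was at 6.79 in its IP library, against 0 to 0.448 in the other male IP libraries. In its IN library Snora78 was at 17.2, against 7.84 to 9.22, and Snora23 was at 13.4, against 9.64 to 10.1 in the other male IN libraries. In IN of male pool 1, Snora73a was at 9.94, against 0.298 to 0.736. In IN of female pool 4, Snora21 (named because of this value) was at 4.76, against 2.14 to 2.53.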

How the results depend on the processing

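Another scaling, filter or pseudocount was tried for each result, and each pool was left out in turn. With the deposited TPM, on which the median of all genes was 1.84, the class medians were 0.43 for box H/ACA and 0.42 for box C/D, and the summed levels gave log2 ratios of 0.82 and 0.25, so all 4 changed sign. The members whose sign changed with them were Snora43 (0.052), Snord15a (0.072), Snord17 (0.073), Snord50b (0.19), Snord22 (0.20), Snora9 (0.22), Snora57 (0.26), Snora30 (0.32), Snora70 (0.34), Snord89 (0.40), Snora21 (0.43), Snord104 (0.44), Snora68 (0.51), Snora17 (0.53), Snord118 (0.53), Snora24 (0.55), Snora81 (0.58), Snora23 (0.59), Snord15b (0.78), Snora78 (1.19), Snora7a (1.33) and Snora73b (1.46). Quantile normalization gave class medians of -0.58 and -0.51 and turned Snora7a to 0.16. A pseudocount of 0.1 gave -1.62 and -1.41, one of 5 gave -0.38 and -0.31, and no filter gave -0.52 and -0.25 and called 75 of 132 members. A filter on the mean over all libraries gave -1.21 for box C/D. The cause of these moves was not tested, apart from the number of members tested under a filter.

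Leaving out each pool gave 20 to 22 calls in IP against IN, class medians of -0.97 to -0.85 for box H/ACA and -0.95 to -0.79 for box C/D, summed log2 ratios of -1.61 to -1.36 and -2.26 to -1.94, and a gain in the box H/ACA share of 8.21 to 10.9 percentage points. For Snora24 the range was -0.27 to 0.012. Calls between the sexes and in the interaction stayed at 0. With no replicate block, IP against IN gave 22 calls and the interaction 0, and with the replicate number as a block the sex comparisons gave 0, so the block changed no call of a member. Equal numbers in the 2 sexes do not mark a pair (correlations -0.30 to 0.10). Of 422 values of single members under an alternative, 383 kept direction and side of the threshold, 11 lost the call, 4 gained it and 24 changed sign.

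TPM keep no counts, so detection limits could not be set, and values near 0 are the least certain. The 113 untested members say nothing about a difference. An added alternative without members over exons, chosen after seeing the data, gave summed log2 ratios of -1.32 for box H/ACA and -2.23 for box C/D.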
